A study of Mus musculus with 6 samples.

Results

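The genes described here encode nucleolar proteins that make ribosomes: subunits of RNA polymerase I, proteins of the small nucleolar ribonucleoproteins, abundant nucleolar proteins, and assembly factors of the small and the large ribosomal subunit. They were chosen by symbol for these functions, with earlier results of these data known, and are 35 genes of 23337 in the deposited table. All 35 were found and passed the filter on low counts, which left 12174 genes to test. Polyadenylated RNA was sequenced from mouse leukemia described as primary and neonatal, which the series title places among leukemias with an MLL rearrangement. There were 3 libraries of leukemia treated with ccl5, the label's name for the treatment and the symbol of a chemokine, and 3 libraries of the same kind of leukemia under control conditions. By their labels, ccl5 library 1 came from a tertiary transplant and ccl5 libraries 2 and 3 from primary transplants. Control library 3 was also labelled as a primary transplant, and no transplant was given for control libraries 1 and 2. The fusion partner of MLL, the mouse strain, age and sex, the dose and duration of the treatment, and whether libraries came from separate animals are not given in the sources used here. Therefore the p-values measure the spread between these libraries, which may be technical.

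Ribosomes are built in the nucleolus. RNA polymerase I transcribes a long precursor of ribosomal RNA there, small nucleolar ribonucleoproteins guide its methylation and pseudouridylation, and assembly factors fold and cut it and load ribosomal proteins until a small and a large subunit leave for the cytoplasm. In mammals the genes of this machinery are widely expressed, are more active in growing cells, and include known targets of the transcription factor MYC.

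Promoter sequences are shown because some of these genes carry CACGTG, the E-box that MYC and MAX bind, close to their start. RefSeq promoters of the GRCm38.p6 build, from 250 bases before to 50 bases after each start, were matched for 30 of the 35 genes. Rrp12, Fbl, Rrs1, Npm1 and Bop1 had no entry. The E-box was found in 7 of the 30 promoters (23.3%). Taken at 1 promoter a gene, it was in 7.24% of all 27025 and in 10.4% of the 8727 that belong to tested genes. These backgrounds used the first promoter listed for a gene, while the 30 used the one nearest the gene start in the counts. The 7 matches are printed from 5′ to 3′ on the strand of the gene, with the E-box in capitals and up to 12 bases on each side.
Mybbp1a (chr11:72441355-72441376, plus strand): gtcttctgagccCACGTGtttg
Utp20 (chr10:88826765-88826789, minus strand): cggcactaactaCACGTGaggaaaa
Utp18 (chr11:93885769-93885798, minus strand): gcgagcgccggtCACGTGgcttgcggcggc
Wdr43 (chr17:71616220-71616249, plus strand): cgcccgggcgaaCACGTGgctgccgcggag
Tsr1 (chr11:74898092-74898121, plus strand): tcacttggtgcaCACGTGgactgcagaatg
Nop2 (chr6:125131811-125131840, plus strand): gtgtccctggatCACGTGtgttccggtgcc
Pes1 (chr11:3963965-3963994, plus strand): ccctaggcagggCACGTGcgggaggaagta
The matches began 60 and 20 bases before the start in Nop2 and Utp18, and 3 to 41 bases after it in the other promoters. Searched on both strands, the GC box GGGCGG was found in 23 of the 30 promoters (76.7%), against 64.5% of those of tested genes and 35.9% of all. The ETS core CCGGAAG was found in 9 (30%), against 18.7% and 9.12%, and the TATA box TATAAA in 3 (10%), against 6.9% and 14.2%. Matches of neighbouring motifs could share bases at their ends. The median GC content was 59.5% in these promoters, 60.7% in those of tested genes and 52.7% in all. The 250 bases before the start are given for Nop2, which holds an E-box, a GC box and an ETS core, and for Nop58, which has one of the lowest fold changes among these genes and holds a GC box without the other motifs. Capitals mark the motifs.
Nop2 (chr6:125131633-125131882, plus strand): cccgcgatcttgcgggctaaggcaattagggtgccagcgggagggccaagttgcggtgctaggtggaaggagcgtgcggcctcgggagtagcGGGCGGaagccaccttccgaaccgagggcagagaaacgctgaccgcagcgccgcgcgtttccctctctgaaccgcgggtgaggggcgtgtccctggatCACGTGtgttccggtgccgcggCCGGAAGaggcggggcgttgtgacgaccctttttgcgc
Nop58 (chr1:59684756-59685005, plus strand): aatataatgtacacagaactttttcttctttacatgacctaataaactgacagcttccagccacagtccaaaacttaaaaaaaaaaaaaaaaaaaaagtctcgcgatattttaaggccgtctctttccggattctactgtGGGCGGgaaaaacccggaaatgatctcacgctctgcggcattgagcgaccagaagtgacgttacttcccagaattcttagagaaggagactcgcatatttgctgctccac
A match is a description of the letters, and binding was not measured.

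Gene counts summed to between 13421100 and 16613837 in the ccl5 libraries and between 15507823 and 18445095 in the controls. A level of 3 counts corresponds to 0.183 to 0.273 CPM under ccl5, against 0.16 to 0.19 CPM in controls (CPM, counts of each gene scaled to the library size by TMM). The libraries stood apart in a way the treatment labels do not give. Across all tested genes, which are not independent of each other, ccl5 libraries 1 and 3 were closely alike (Pearson r of log2 CPM 0.9927), as were ccl5 library 2 and control library 3 (0.995) and control libraries 1 and 2 (0.9951), while all other pairs lay between 0.826 and 0.887. These 3 alike pairs differed beyond counting noise, with a mean chi-square per gene of 7.897, 4.55 and 3.555, as separate preparations of 1 RNA could too. Each library was counted as 1 sample because the labels list it as one, and whether alike libraries share an animal is not given. Library 3 of the ccl5 group carries the transplant label of ccl5 library 2 but was like ccl5 library 1. Reads of 4 Y-linked genes were absent from ccl5 libraries 1 and 3 and numbered 5103 in ccl5 library 2 and 6210 to 7777 in the controls. Values without ccl5 library 2 or control library 3 are given for most gene lists and for many single genes, but not for every gene named. An absent value does not mean that the library had no effect.

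Fold changes of the nucleolar genes all pointed down with ccl5, but no gene passed the test. All 35 had a lower log2 fold change, ccl5 over control, with a median of -0.42, while 51% of the 12174 tested genes were lower and their median was -0.01. This contrast was not tested, because the genes were chosen with earlier results of these data known. In edgeR's quasi-likelihood test 0 of the 35 passed an adjusted p of 0.05 (adjusted p from 0.365 to 0.896), against 0% of all tested genes. At an unadjusted p under 0.05, 2 of the 35 were lower, Npm1 and Wdr43, against 4.67% of all tested genes. On the higher side were 0 of the 35, against 1095 of the 12174 tested genes. DESeq2 also called 0 of the 35, against 0.402% of all genes lower, and gave Dkc1 no adjusted p. The 3 ccl5 libraries lay below the 3 control libraries without overlap in 4 of the 35 genes, Npm1, Rrp9, Utp18 and Wdr43, against 7.49% of all tested genes, and above them in 0, against 8.27%. The share without overlap on the lower side was near the background.

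The low values lay in 2 of the ccl5 libraries. Summed over the 35 genes, CPM was 1635, 2866 and 1635 in ccl5 libraries 1, 2 and 3, against 2804, 2984 and 2684 in control libraries 1, 2 and 3. Libraries 1 and 3 of the ccl5 group were low and library 2 lay among the controls. In bulk RNA fewer cells of a type and less RNA per cell cannot be told apart. In all 35 genes ccl5 libraries 1 and 3 were both below control libraries 1 and 2. The same held for 43.3% of the 12440 genes tested with these libraries alone. The lowest of the 6 values was in ccl5 library 3 for 27 genes, in ccl5 library 1 for 6 and in control library 3 for 2, which were Gnl3 and Nop14. The highest was in ccl5 library 2 for 16 genes and in control library 2 for 13. Between ccl5 library 2 and control library 3 alone, the ccl5 library was the higher for 29 of the 35 genes, with a median log2 ratio of 0.19 (range -0.09 to 0.55), against 0.00 over all tested genes.

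**Figure D1:**
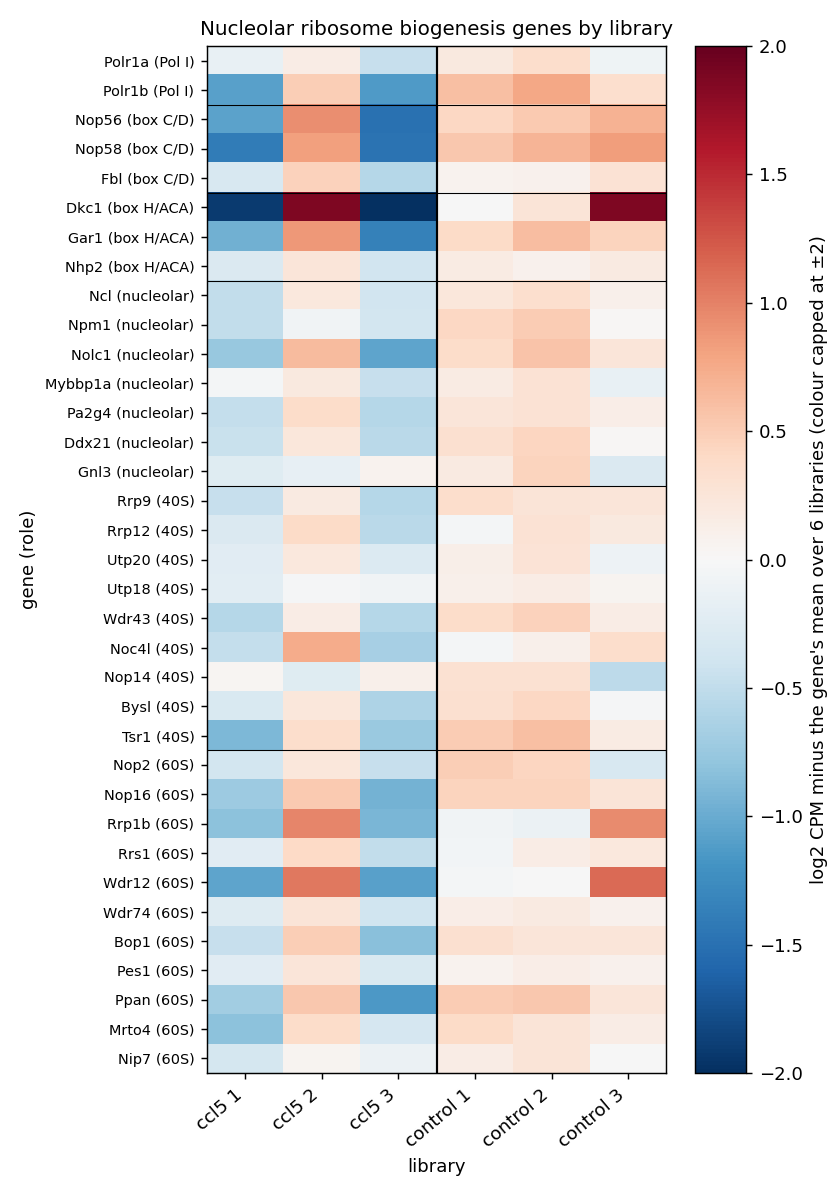
Log2 CPM of each of the 35 genes in each library, minus the gene's mean over the 6 libraries, ordered by role (colour capped at 2 either way). The columns of ccl5 libraries 1 and 3 are mostly blue, and that of ccl5 library 2 resembles the controls, with median deviations of -0.46, 0.36 and -0.56 in ccl5 libraries 1 to 3 and 0.25, 0.29 and 0.17 in control libraries 1 to 3.

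What could be called depended on single libraries, and so did the size of the shift. Without ccl5 library 1 the median log2 fold change of the 35 genes was -0.24, with 33 lower. Without ccl5 library 3 it was -0.25, with 31 lower. In either case edgeR called 0 of the 35 and 0 of all tested genes. With 1 surrogate variable in the model the median was -0.15, with 27 lower and 0 called, and again 0 of all tested genes were called. Without ccl5 library 2, edgeR's quasi-likelihood test called 19 of the 35 genes lower (adjusted p from 0.00257 to 0.998), against 11.9% of all tested genes. The groups then did not overlap in 32 of 35, against 31.4% of all, with a median log2 fold change of -0.74. The exceptions were Mybbp1a, Gnl3 and Nop14. The ccl5 side of that fit is libraries 1 and 3, which are closely alike. On that side its p-values measure the spread within the pair, which may be technical. The same holds for all p-values and calls given below without ccl5 library 2. Without control library 3 edgeR's test called 0 of 35, against 1.34% of all genes, and 14 did not overlap, against 23.6% of all. With both of these libraries left out, a choice made after their similarity was seen, 34 of 35 were called lower, against 35.5% of all genes, and 35 of 35 did not overlap, against 43.3%. Limma-voom with quality weights called 34 of 35 lower, against 33.5% of all genes, and gave weights of 0.0676 to ccl5 library 2 and 0.125 to control library 3, against 2.22 to 4.54 for the others. Nop14 was the gene not called in both cases. The first of these fits set ccl5 libraries 1 and 3 against control libraries 1 and 2, each a closely alike pair. The second gave these libraries most of the weight. P-values of both fits thus measure mainly the spread within alike pairs, which may be technical. With primary transplants alone, ccl5 libraries 2 and 3 against the lone control library 3, 30 of 35 were lower with a median of -0.21, where the lone control is assumed to vary like the ccl5 libraries. When ccl5 library 2 alone was set against the 3 controls, which are the libraries holding Y-linked reads, 14 of 35 were lower and the median was 0.10. Lack of Y-linked reads and treatment cannot be told apart for the low libraries, since ccl5 libraries 1 and 3 and no control lacked these reads.

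**Figure D2:**
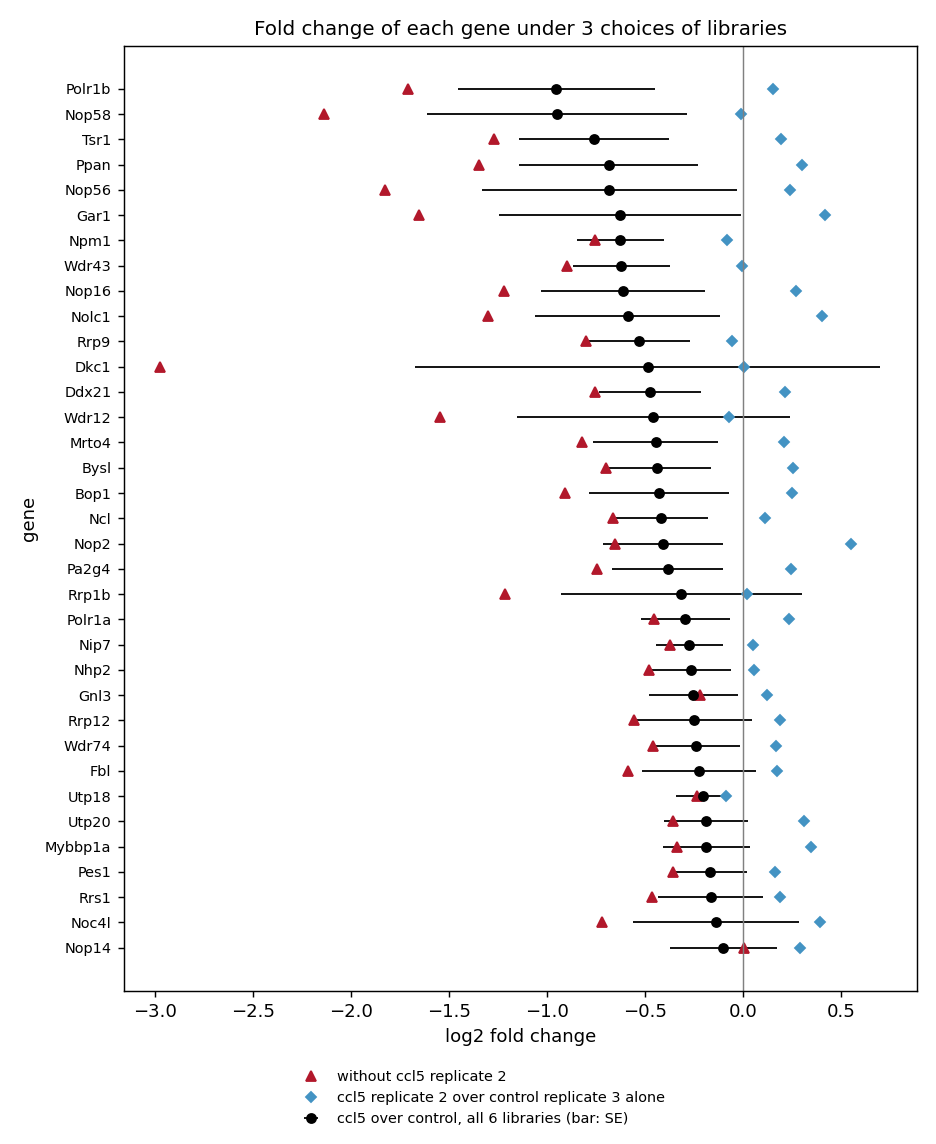
Log2 fold change of each gene for all 6 libraries (black, with the SE), without ccl5 library 2 (red), and the log2 ratio of ccl5 library 2 over control library 3 alone (blue). All black points lie below 0 and 29 of the 35 blue points above it.

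RNA polymerase I is the enzyme that transcribes the ribosomal RNA precursor. Polr1b (chromosome 2, 129100996 to 129126595, plus strand, mm10), one of its core catalytic subunits, measured 5.48, 16.6 and 5.28 CPM in ccl5 libraries 1, 2 and 3 and 17.9, 20.2 and 14.9 CPM in control libraries 1, 2 and 3. Libraries 1 and 3 of the ccl5 group were low, library 2 lay between control libraries 3 and 1, and the groups overlapped. Its log2 fold change was -0.95 (SE 0.50), with an adjusted p of 0.426 in edgeR's quasi-likelihood test. Without ccl5 library 2 it was -1.71, with an adjusted p of 0.00823 in the same test. Polr1a (chromosome 6, 71909053 to 71979360, plus strand), which encodes the largest subunit, measured 20.2, 24.7 and 16.2 CPM under ccl5, against 25.4, 28.5 and 21.0 CPM in controls. Its values lay closer together, ccl5 library 2 was above control library 3, and the log2 fold change was -0.30 (SE 0.23), or -0.45 without ccl5 library 2, where it was not called (adjusted p 0.146 in edgeR).

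The core proteins of box C/D particles, which guide ribose methylation of ribosomal RNA, separated the libraries widely. Nop58 (chromosome 1, 59685006 to 59711510, plus strand), a scaffold protein of these particles, measured 18.7, 88.0 and 17.7 CPM under ccl5, against 72.4, 80.0 and 88.6 CPM in controls. Nop56 (chromosome 2, 130274412 to 130279313, plus strand), its partner, measured 27.1, 109.6 and 20.2 CPM under ccl5, against 76.7, 82.6 and 92.9 CPM in controls. For both genes ccl5 libraries 1 and 3 were far below the other 4, and ccl5 library 2 was among the highest. Fbl (chromosome 7, 28169748 to 28179269, plus strand), the methyltransferase fibrillarin, had the same layout over a narrower range, with 42.4, 72.7 and 35.6 CPM under ccl5, against 55.4, 56.2 and 64.6 CPM in controls. Log2 fold changes were -0.95 (SE 0.66) for Nop58, -0.68 (SE 0.65) for Nop56 and -0.22 (SE 0.29) for Fbl, and the groups overlapped in each. Without ccl5 library 2 Nop58 had the smallest adjusted p of the 35 genes, 0.00257 in edgeR's test, at a log2 fold change of -2.14. Nop56 then had -1.82 (adjusted p 0.00535) and Fbl -0.59 (0.0431), and edgeR called both. Summed over the 3 genes, the level was 88.2, 270.4 and 73.5 CPM under ccl5, against 204, 219 and 246 CPM in controls.

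Box H/ACA particles turn uridine of ribosomal RNA into pseudouridine, and one of their proteins varied most of all 35 genes. Dkc1 (chromosome X, 75095854 to 75109776, plus strand), the pseudouridine synthase dyskerin, which also belongs to telomerase, measured 11.3, 158 and 10.1 CPM under ccl5, against 42.7, 51.8 and 158 CPM in controls. The libraries fell at 3 levels, with ccl5 libraries 1 and 3 lowest, control libraries 1 and 2 between, and ccl5 library 2 and control library 3 highest. From the lowest to the highest library Dkc1 spanned 3.95 on the log2 scale, against 0.37 for Utp18, the narrowest. Its log2 fold change was -0.49 (SE 1.19), and without control library 3 it was 0.36, with the sign turned. Without ccl5 library 2 it was -2.97, with an adjusted p of 0.0384 in edgeR. Gar1 (chromosome 3, 129824912 to 129831396, minus strand) measured 4.42, 16.0 and 3.37 CPM under ccl5, against 11.4, 13.5 and 11.99 CPM in controls. Nhp2 (chromosome 11, 51619773 to 51623714, plus strand) measured 53.9, 78.3 and 50.8 CPM under ccl5, against 74.6, 70.0 and 75.3 CPM in controls. Both encode structural proteins of the particle, both were lowest in ccl5 libraries 1 and 3, and both were highest in ccl5 library 2. Their log2 fold changes were -0.63 (SE 0.62) for Gar1 and -0.26 (SE 0.20) for Nhp2. With ccl5 library 2 left out, edgeR called both, at -1.65 for Gar1 (adjusted p 0.0115) and -0.48 for Nhp2 (0.0343).

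The abundant nucleolar proteins held the most counts of the 6 roles, summed to 1003, 1501 and 1042 CPM under ccl5, against 1721, 1850.3 and 1425 CPM in the controls. Npm1 (chromosome 11, 33152498 to 33163206, minus strand), which encodes the nucleolar chaperone nucleophosmin, measured 406, 549 and 442 CPM under ccl5, against 764, 814 and 580.2 CPM in controls. All 3 ccl5 libraries were below all 3 controls, but the gap between ccl5 library 2 and control library 3 was small, at a log2 ratio of -0.08. Npm1 averaged 466 ± 74.0 CPM under ccl5, against 719 ± 123 CPM in controls (SD, n = 3 each), a log2 fold change of -0.63 (SE 0.22) with a 95% confidence interval of -1.17 to -0.09 and an adjusted p of 0.365 in edgeR. Nolc1 (chromosome 19, 46075863 to 46085531, plus strand), a chaperone of small nucleolar ribonucleoproteins, measured 18.9, 50.1 and 15.4 CPM under ccl5, against 41.7, 47.6 and 38.0 CPM in controls. Ddx21 (chromosome 10, 62580247 to 62602298, minus strand), an RNA helicase of ribosomal RNA transcription and processing, measured 78.6, 126 and 73.5 CPM under ccl5, against 134, 144 and 109 CPM in controls. In both genes ccl5 libraries 1 and 3 were below all controls and ccl5 library 2 was among or above them, with log2 fold changes of -0.59 (SE 0.47) and -0.48 (SE 0.26). Ncl, the gene of nucleolin, had a log2 fold change of -0.42, Pa2g4, which encodes a growth-regulated protein that binds ribosomal RNA, -0.38, and Mybbp1a, a nucleolar binding partner of MYB, -0.19. Leaving out ccl5 library 2, edgeR called Npm1 at -0.76 (adjusted p 0.043), Nolc1 at -1.30 (0.00905), Ddx21 at -0.76 (0.0279), Ncl at -0.66 (0.0271) and Pa2g4 at -0.74 (0.0133), and did not call Mybbp1a or Gnl3. Gnl3, the nucleolar GTPase nucleostemin, departed from this layout. Its 31.8, 33.5 and 39.5 CPM with ccl5 stood against 42.7, 51.3 and 30.9 CPM in controls, so control library 3 was the lowest of the 6.

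Per length of the gene model, Npm1 was the most abundant of the 35 genes and Utp20 the least. Npm1 averaged 271 RPKM (CPM per kilobase of the gene model) with ccl5 and 419 RPKM in controls. Utp20, a large processome protein, averaged 2.24 RPKM with ccl5 and 2.56 RPKM in controls. Nhp2 followed Npm1 at 60.8 RPKM with ccl5 and 73.0 RPKM in controls. This order depends on the length of the gene model, 8257 bases for Ncl and 1004 for Nhp2. In mean CPM Ncl stood far above Nhp2, at 401 against 61.0 with ccl5 and 536 against 73.3 in controls.

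**Figure D3:**
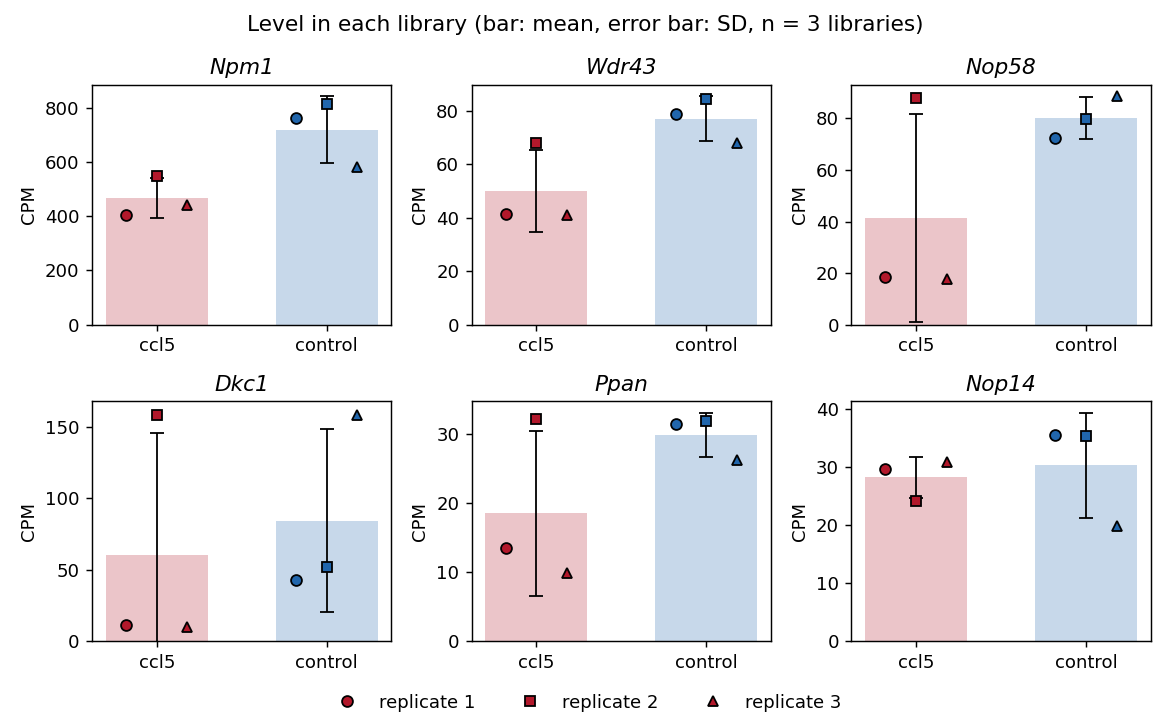
CPM of 6 of the genes in each library, with bars at the group mean and error bars of the SD (n = 3 libraries a group, axes from 0). Npm1 and Wdr43 do not overlap between groups, while for Nop58, Dkc1 and Ppan ccl5 libraries 1 and 3 lie apart from ccl5 library 2, and Nop14 is lowest in control library 3.

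Factors of the small subunit processome and of small subunit assembly had a median log2 fold change of -0.25, the nearest to 0 of the 6 roles. Wdr43 (chromosome 17, 71616215 to 71659031, plus strand), a processome protein that links transcription to processing, measured 41.4, 67.9 and 41.1 CPM under ccl5, against 78.8, 84.5 and 68.1 CPM in controls. The groups did not overlap, yet ccl5 library 2 and control library 3 were nearly equal. Its log2 fold change was -0.62 (SE 0.25), with a 95% confidence interval of -1.22 to -0.02 and an adjusted p of 0.365 in edgeR. Tsr1 (chromosome 11, 74898080 to 74909340, plus strand), a late assembly factor related to translation GTPases, measured 11.1, 26.8 and 12.4 CPM under ccl5, against 29.9, 31.9 and 23.4 CPM in controls. Rrp9 (chromosome 9, 106477309 to 106485415, plus strand), a protein of the U3 particle, measured 10.7, 16.7 and 9.92 CPM under ccl5, against 18.8, 17.8 and 17.4 CPM in controls. Tsr1 overlapped between groups through ccl5 library 2, and Rrp9 did not overlap, by a small margin. Their log2 fold changes were -0.76 (SE 0.38) and -0.53 (SE 0.26). Utp18, a processome protein, also separated the groups, at 30.6, 34.8 and 33.9 CPM under ccl5, against 37.9, 39.4 and 37.0 CPM in controls, a narrow step with a log2 fold change of -0.20 (SE 0.14). The other 5 had log2 fold changes between -0.44 and -0.10: Bysl, a late assembly factor, -0.44, Rrp12, an export factor, -0.25, and the processome proteins Utp20, Noc4l and Nop14 -0.19, -0.14 and -0.10. When ccl5 library 2 was left out, edgeR called Tsr1 at -1.27 (adjusted p 0.0126), Wdr43 at -0.90 (0.0127) and Rrp9 at -0.80 (0.0237). It called none of the other 6, of which Bysl moved to -0.70, Rrp12 to -0.56, Utp20 to -0.36, Noc4l to -0.72 and Nop14 to 0.0013. Nop14 measured 29.6, 24.2 and 30.9 CPM under ccl5, against 35.6, 35.5 and 19.9 CPM in controls, and ccl5 libraries 1 and 3 were there above both ccl5 library 2 and control library 3.

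Large subunit assembly factors had a median log2 fold change of -0.41, and 0 of the 11 separated the groups, against 7.49% of all tested genes. Ppan (chromosome 9, 20888175 to 20892179, plus strand), an early assembly factor, measured 13.5, 32.2 and 9.92 CPM under ccl5, against 31.5, 32.0 and 26.2 CPM in controls. Nop16 (chromosome 13, 54584191 to 54590074, minus strand), a nucleolar protein of large subunit precursors, measured 14.2, 34.0 and 12.2 CPM under ccl5, against 32.0, 32.3 and 28.2 CPM in controls. In both, ccl5 library 2 was the highest of the 6 and ccl5 libraries 1 and 3 the lowest, with log2 fold changes of -0.69 (SE 0.46) and -0.61 (SE 0.42). The 3 proteins of the PeBoW complex, which processes large subunit ribosomal RNA in mammals, did not share one layout. Wdr12 (chromosome 1, 60076868 to 60098500, minus strand) measured 21.5, 92.9 and 20.9 CPM under ccl5, against 43.8, 44.6 and 97.7 CPM in controls, at 3 levels as for Dkc1. Its log2 fold change was -0.46 (SE 0.70), against -0.43 (SE 0.36) for Bop1 and -0.17 (SE 0.19) for Pes1, whose control libraries lay close together at 35.6, 33.9 and 33.7 CPM and 86.5, 90.8 and 87.5 CPM. Rrp1b had the 3 levels too, with 22.5, 78.2 and 21.1 CPM under ccl5, against 38.1, 36.6 and 77.0 CPM in controls, and a log2 fold change of -0.32. The remaining 5 were Mrto4, related to a stalk protein of the large subunit (-0.45), Nop2, an RNA methyltransferase (-0.41), and the assembly factors Nip7 (-0.27), Wdr74 (-0.24) and Rrs1 (-0.16). Once ccl5 library 2 was left out, edgeR called Ppan at -1.34 (adjusted p 0.0129), Nop16 at -1.22 (0.00812), Bop1 at -0.91 (0.0189) and Mrto4 at -0.82 (0.0365). Not called, Wdr12 then had -1.55, Rrp1b -1.21, Nop2 -0.65, Rrs1 -0.47, Wdr74 -0.46, Pes1 -0.36 and Nip7 -0.37. Without control library 3 the sign turned for Wdr12, at 0.0445, and for Rrp1b, at 0.13. Nop2 measured 19.8, 30.0 and 18.7 CPM under ccl5, against 36.0, 34.4 and 20.5 CPM in controls, the gene in which ccl5 library 2 exceeded control library 3 by most (log2 ratio 0.55).

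The 7 genes with an E-box in the printed windows had log2 fold changes of -0.76 for Tsr1, -0.62 for Wdr43, -0.41 for Nop2, -0.20 for Utp18, -0.19 for Utp20, -0.19 for Mybbp1a and -0.17 for Pes1. They lay within the range of the other genes, and Nop58 and Polr1b, with the lowest fold changes, had no E-box in the window searched.

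Other genes of the pathway, from lists that do not include the 35, were mostly lower too, and none passed edgeR's test. Of 13 other RNA polymerase I subunits and factors 11 were lower, with a median log2 fold change of -0.25. Rrn3, the polymerase's initiation factor, measured 45.5, 47.9 and 53.1 CPM under ccl5, against 51.9, 49.0 and 44.2 CPM in controls (log2 ccl5 over control 0.01, SE 0.14), so its level hardly varied. Ubtf, the upstream binding factor of ribosomal DNA, measured 33.1, 104 and 31.8 CPM under ccl5, against 60.4, 61.5 and 101 CPM in controls, at 3 levels as for Dkc1, and Taf1a and Taf1d of the promoter selectivity factor had -0.34 and -0.30. Other ribonucleoprotein and nucleolar factors were lower in 10 of 13 (median -0.41), while Tcof1, the nucleolar protein treacle, was higher in all 3 ccl5 libraries, at 43.0, 37.8 and 32.1 CPM against 26.5, 30.0 and 28.0 CPM in controls (log2 ccl5 over control 0.42, SE 0.17), as was Nufip1 (0.34). Of 42 other small subunit factors 35 were lower (median -0.27), with Esf1 at -0.70 and Wdr75 at -0.75. Of 46 other large subunit factors 34 were lower (median -0.24). Among these Gtpbp4 had -0.87, and Urb1 was higher in all 3 ccl5 libraries, at 24.1, 16.8 and 23.8 CPM against 13.6, 14.2 and 13.5 CPM in controls (log2 ccl5 over control 0.65, SE 0.21). At an unadjusted p under 0.05, 6 of these small subunit and 5 of these large subunit factors were lower, against 4.67% of all tested genes. Urb1 and Tcof1 were higher, as were 1095 of all 12174 tested genes. All 13 genes of the exosome that trims ribosomal RNA were lower (median -0.46), Mphosph6 with -0.71 and Exosc1 with -0.54. In the fit without ccl5 library 2, edgeR called lower 2 of the 13 polymerase genes (median -0.31), 6 of the 13 nucleolar factors (-0.67), 15 of the 42 small subunit factors (-0.51), 15 of the 46 large subunit factors (-0.44) and 8 of the 13 exosome genes (-0.94), against 11.9% of all tested genes. Without control library 3 it called 1 small subunit factor and none of the others, against 1.34% of all tested genes called lower. The medians were then -0.10, -0.46, -0.26, -0.27 and -0.38 in the same order.

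Cytosolic ribosomal protein genes, the structural part of the ribosome, were laid out otherwise. Of 54 tested, 53 had a lower log2 fold change (median -0.53), and in 51 the groups did not overlap, lower with ccl5, against 4 of the 35 nucleolar genes and 7.49% of all tested genes. Between ccl5 library 2 and control library 3 their median log2 ratio was -0.12, where that of the nucleolar genes was 0.19. The difference between these lists was not tested, and 0 ribosomal protein genes passed the adjusted p in edgeR. At an unadjusted p under 0.05, 26 were lower, against 4.67% of all tested genes. The fit without ccl5 library 2 called 21 of the 54 lower, against 11.9% of all genes, with a median of -0.63. That without control library 3 called 0, against 1.34% of all genes called lower, with a median of -0.61. Rpl32 measured 872, 1332 and 1017 CPM under ccl5, against 1938, 1959 and 1502 CPM in controls, and Rpl36 measured 341, 407 and 364 CPM under ccl5, against 665, 629.6 and 450.3 CPM in controls. For both, ccl5 library 2 was the highest of its group and control library 3 the lowest of its own.

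Several other genes differed between the same libraries, and their part in the result was not tested. Myc measured 9.76, 67.0 and 5.10 CPM under ccl5, against 64.4, 64.8 and 53.3 CPM in controls (log2 ccl5 over control -1.15, SE 0.93; edgeR gave an adjusted p of 0.588). Its low values were in ccl5 libraries 1 and 3, the same libraries as for the nucleolar genes. Mnt, a repressor that competes for the MYC partner MAX, measured 91.7, 30.3 and 87.2 CPM under ccl5, against 32.3, 28.0 and 28.8 CPM in controls, high in the same libraries, and Max had a log2 fold change of 0.25. Over the 9 tested genes of the MYC network 4 were lower, with a median of 0.14, or 0.0549 without ccl5 library 2 and 0.32 without control library 3. All 26 genes of G2/M and mitosis had a lower fold change (median -0.69), and their summed level was 440.2, 3539 and 317 CPM in ccl5 libraries 1, 2 and 3 and 1474, 1572 and 3448 CPM in control libraries 1, 2 and 3. That is the order of the 3 levels of Dkc1, Wdr12 and Rrp1b. The sum over all nucleolar genes did not set ccl5 library 2 and control library 3 above control libraries 1 and 2. The sums over the box C/D, box H/ACA and large subunit assembly genes did. Those over the RNA polymerase I, abundant nucleolar and small subunit genes did not. Leaving ccl5 library 2 out, the median of the G2/M genes was -2.88 and edgeR called 24 of 26 lower, against 11.9% of all tested genes. Without control library 3 the median was -0.20, with 18 lower and 0 called, against 1.34% of all tested genes called lower. Bub3 had a log2 fold change of -0.49 and Anln -0.80 in this list.

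Markers of cell types differed between the libraries as well, and their part was not tested either. The 18 monocyte and macrophage genes, 15 of them with a higher fold change, summed to 24989, 4942 and 28862 CPM under ccl5, against 14772, 14481 and 5390 CPM in the controls, so this list was highest where the nucleolar genes were lowest. Ctss, which encodes a lysosomal protease, had a log2 fold change of 3.08 there. The median of the list was 1.28, or 1.67 without ccl5 library 2 and 1.29 without control library 3. The 12 neutrophil granule genes summed to 841, 15873 and 814 CPM under ccl5, against 2996, 3051 and 15644 CPM in controls, with log2 fold changes of 1.77 for Mmp8 and -1.31 for Ctsg. Their median was -0.16, or -4.43 without ccl5 library 2 and 2.28 without control library 3, with the sign turned. Defining genes of other lineages were at or near 0: the 6 erythroid genes summed to 1.18 to 2.02 CPM under ccl5, against 1.46 to 1.98 CPM in controls, and the T cell genes to 0.712 to 2.26 CPM and 1.07 to 2.97 CPM. Hba-a1 and Hbb-b1 had 0 counts in all 6 libraries, and Cd3e at most 1. Of the B cell genes, which summed to 12.03 to 15.6 CPM under ccl5, against 12.3 to 17.0 CPM in controls, Cd79b held most of the level, and no library had over 2 counts of Pax5 or over 1 of Ebf1. Stroma and endothelium genes summed to 26.8 to 85.6 CPM under ccl5, against 86.0 to 98.6 CPM in controls, nearly all from Pecam1 (log2 ccl5 over control -0.86). The remaining markers named by rule were low, with Cd79a, Lck and Col1a1 at no more than 1.08, 2.42 and 0.693 CPM in any library.

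**Figure D4:**
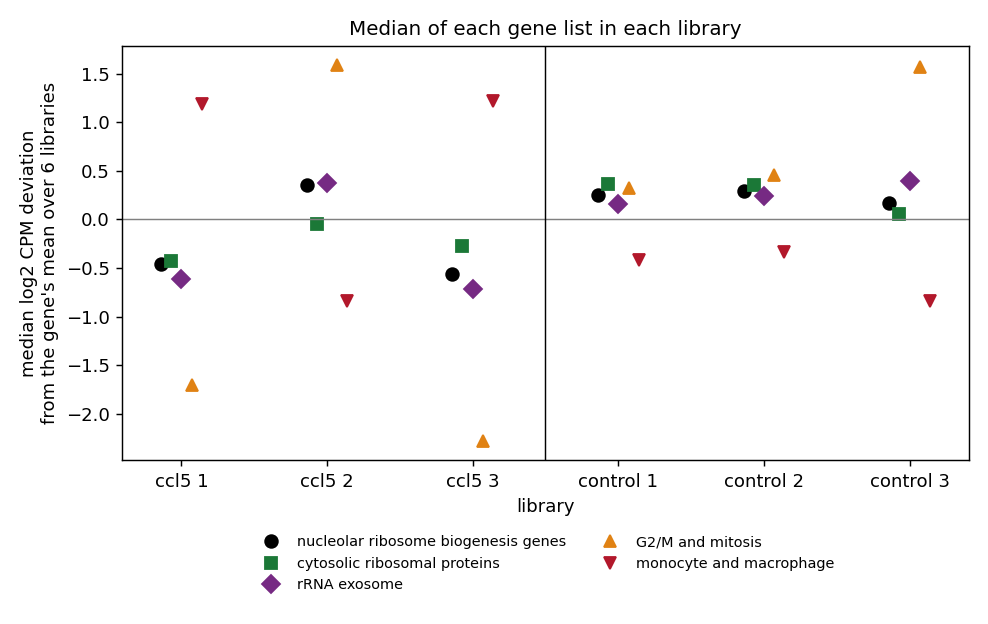
Median log2 CPM deviation from each gene's mean over the 6 libraries, for the nucleolar genes and 4 other lists in each library. The nucleolar genes, the exosome and the ribosomal proteins are low in ccl5 libraries 1 and 3, where G2/M genes are lowest at -1.71 and -2.29 and monocyte genes highest at 1.19 and 1.22.

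Strand was not used in counting, and the exons of 8 of the 35 genes overlap those of a gene on the other strand. Reads from the shared stretch cannot be told apart, while those from the rest of each gene can. The pairs are Nop56 with Idh3b, Dkc1 with Mpp1, Nhp2 with Rmnd5b, Gnl3 with Glt8d1, Bysl with Ccnd3, Tsr1 with Srr, Wdr12 with Carf, and Bop1 with Heatr7a. Of the 8 partners, Ccnd3, which encodes a cyclin, had 131.7, 216 and 106.6 CPM under ccl5, against 306, 294 and 194.5 CPM in controls. Its level is far above that of Bysl and its layout is like that of Bysl. The genes overlap only from 47599331 to 47599688, and how far reads from there affect the fold change of Bysl was not tested. Log2 fold changes of the partners were -0.81 for Ccnd3, -0.39 for Srr, -0.25 for Carf, -0.06 for Glt8d1, -0.05 for Idh3b, 0.38 for Mpp1, 0.44 for Rmnd5b and 0.72 for Heatr7a. Mpp1 had 240.7, 218 and 270.0 CPM under ccl5, against 166, 173 and 222 CPM in controls, and Rmnd5b had 39.6, 77.6 and 38.9 CPM under ccl5, against 22.0, 19.9 and 73.1 CPM in controls. Npm1 has processed copies in the genome, and a read with several alignments was counted at its primary one, so part of its count is uncertain.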

How the data were processed

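Counts were analysed as the authors deposited them: whole reads per gene and library, counted with featureCounts 1.5.1 on primary alignments with a UCSC mm10 annotation and no strand option, per the file headers. The submitters' processing notes also name TopHat, Bowtie, Trimmomatic and DESeq2, with no version. RNA was selected for poly(A) tails and read single-end, per the labels' protocols. The gene length in the deposited table served for RPKM alone. The table held 0 other columns of values per sample.

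Counts were scaled by TMM and filtered with filterByExpr (minimum count 10). Each gene was tested, ccl5 over control, with the two-sided quasi-likelihood F test of edgeR 4.0.16 (R 4.3.3), Benjamini-Hochberg adjusted over all 12174 tested genes at 0.05. Each SE is the size of the log2 fold change over the root of its F value. Log2 CPM used a prior count of 2. The code was tested on simulated data, drawn as independent libraries without the alike pairs seen here. The simulation does not cover the effect of such pairs. Alternatives used DESeq2 1.42.0, limma 3.58.1, sva 3.50.0, other filters and scalings, and fewer libraries. Coordinates are those of the file (mm10, from 1).

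The 35 genes and the lists were chosen with earlier results of these data known. All 35 are named, the 3 per role with the largest fold change in every library, with Myc, Ubtf, Rrn3 and up to 2 genes of smallest p from each other list. From 1 of these lists, 1 of the 2 genes is not reported here. Genes named beyond this rule (values of others in every library, overlap partners, marker genes at 0) were chosen after their values were seen. Depth limits low genes to steps of 1 count, and p-values cover the spread between libraries.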

Additional observations from a re-analysis of the deposited data

How the results depend on the processing

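With DESeq2 size factors, upper-quartile scaling, no filter, a filter that asked for over 1 CPM in 3 libraries and DESeq2's Wald test, all 35 genes kept a lower fold change and 0 were called, with medians from -0.52 to -0.41. Upper-quartile scaling gave the median of all genes as -0.12, against -0.01 with TMM, and that of the 35 as -0.52. DESeq2's Wald test called 49 genes lower and 91 higher over all genes, and limma-voom with quality weights 4082 and 4015, with 34 of the 35. Leaving out 1 library at a time gave 0 to 1497 genes lower, 0 to 1802 higher, 0 to 19 of the 35 called, 4 to 32 without overlap and medians from -0.74 to -0.24. With both ccl5 library 2 and control library 3 left out, chosen after seeing the data, a closely alike pair remained in each group. In that fit 4419 genes were lower and 4378 higher, 34 of the 35 were called, 35 did not overlap and the median was -0.80. With the Y-linked libraries alone (ccl5 library 2 and the controls) the median reversed to 0.10.

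Signs of single genes turned as follows, and the cause was not tested. When 1 library was left out, log2 fold changes ranged from -2.97 to 0.36 for Dkc1, -0.72 to 0.12 for Noc4l, -0.32 to 0.0308 for Nop14, -1.21 to 0.13 for Rrp1b, -0.47 to 0.0211 for Rrs1 and -1.55 to 0.0445 for Wdr12. With primary transplants alone they were 0.0441 for Mybbp1a, 0.23 for Gnl3, 0.0762 for Utp20, 0.46 for Nop14 and 0.24 for Nop2. With the Y-linked libraries they were 0.91 for Dkc1, 0.63 for Rrp1b, 0.59 for Noc4l, 0.58 for Wdr12, 0.38 for Nop56 and Gar1, 0.31 for Fbl, 0.29 for Rrs1, 0.24 for Nolc1, 0.22 for Rrp12, 0.21 for Bop1, 0.15 for Pes1, 0.14 for Pa2g4 and Nop16, 0.13 for Nop58, 0.12 for Wdr74, 0.11 for Ppan, 0.10 for Utp20 and Mrto4, 0.0926 for Nhp2 and 0.0747 for Mybbp1a. With 1 surrogate variable they were 0.50 for Dkc1, 0.42 for Rrp1b, 0.35 for Noc4l, 0.34 for Wdr12, 0.16 for Rrs1, 0.14 for Fbl, 0.0675 for Rrp12 and 0.0304 for Pes1, and 27 of the 35 stayed lower, with a median of -0.15. No paired analysis was possible because the labels give the groups no shared animal, batch or replicate number.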
